A study of Homo sapiens with 9 samples.

Results

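The genes of glycolysis, glucose import and pyruvate fate were followed after knockdown of NRF2 in A549 cells. The members were 35 genes listed by name: glucose transporters, the enzymes from hexokinase to lactate dehydrogenase, the enzymes that set the level of fructose 2,6-bisphosphate, the pyruvate dehydrogenase kinases and the first subunit pair of that complex, lactate exporters, and the gluconeogenic genes FBP1 and PCK2. Of the 35, 33 were measured by at least 1 probe set that carries a single gene, among 19775 genes in all; the lactate exporters SLC16A1 and SLC16A3 were not analysed here. For each gene the probe set with the highest mean over the 9 arrays was used.

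A549 is an established human lung adenocarcinoma line in which KEAP1, the protein that targets NRF2 for destruction, is mutated, so that NRF2 is active without added stress. The groups were Nrf2 siRNA (an siRNA against NRF2, gene symbol NFE2L2, at 25 nM), NS siRNA (a non-targeting siRNA at 25 nM) and mock (transfection reagent without siRNA), each with 3 biological replicates on 1 array each. All cells were grown in high-glucose medium, received Lipofectamine 2000 and were harvested 96 h later. With 1 Nrf2 siRNA group and no rescue, loss of NRF2 cannot be told apart from other effects of that siRNA, and mock differs from NS siRNA by the presence of any siRNA.

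Glycolysis splits glucose to pyruvate in the cytosol. Hexokinase traps glucose as its phosphate, phosphofructokinase makes the committed step, and the later steps, from glyceraldehyde phosphate to pyruvate, yield ATP and NADH. Pyruvate is then reduced to lactate and exported, or enters mitochondria, where the pyruvate dehydrogenase complex turns it into acetyl-CoA unless a pyruvate dehydrogenase kinase has switched the complex off. NRF2 is best known for antioxidant and NADPH-producing enzymes, including those of the pentose phosphate pathway, which branches from glucose 6-phosphate.

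The values are log2 expression levels, so a difference of 1 is a 2-fold change. NFE2L2 stood at 10.12, 10.32 and 10.30 in Nrf2 siRNA, against 12.09, 12.03 and 12.15 in NS siRNA and 12.07, 11.92 and 11.98 in mock. NFE2L2 was thus at 27.9% of its NS siRNA level and at 30.0% of its mock level, and no Nrf2 siRNA array overlapped a control. The epithelial keratins KRT8 and KRT18 were among the brightest genes (means of 14.37 and 14.99 in Nrf2 siRNA, 14.32 and 14.94 in NS siRNA, 14.17 and 14.88 in mock), whereas the alveolar markers NKX2-1 and SFTPC lay at 7.54 and 9.21 in Nrf2 siRNA, 7.65 and 9.38 in NS siRNA, and 7.58 and 9.32 in mock. The array medians ran from 7.51 to 7.57, and the median SD between replicates was 0.0583 log2. Precision is limited by having 3 arrays in a group, and p-values set each difference against the spread between these samples.

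Setting Nrf2 siRNA beside NS siRNA separates the targeted siRNA from the presence of an siRNA. The changes of 2-fold or more were a rise of PDK4, a kinase that inactivates pyruvate dehydrogenase, and a fall of PFKP, the platelet-type phosphofructokinase; 2 of 33 members reached that size, against 2.83% of all genes. The glucose transporters split, with SLC2A3 rising and SLC2A1 falling. On the brightest probe set of each, TPI1, GAPDH, PGK1, PGAM1, ENO1, PKM, LDHA and LDHB were all within 0.15 log2 of NS siRNA. In limma, with p adjusted by Benjamini-Hochberg over all genes and called below 0.05, 19 of 33 members passed (57.6%, beside 47.6% of all genes), 13 of them lower and 6 higher. The shares over all genes were 26.6% lower and 21.0% higher. Beside these, 39.4% of members lower stood above the background and 18.2% higher stood near it. That background includes dim genes, whereas 2 of 33 members lay below the array median. Among the 13150 genes above the median level, 4433 were lower and 3901 higher, beside 14 and 6 of 31 members. There the share of members called in either direction was near that of the genes, with more lower and fewer higher.

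Against mock, the second control, 13 members were lower and 3 higher, where all genes gave 16.7% lower and 16.4% higher. In either direction it was 48.5% of members, beside 33.0%. Among the 13150 genes above the median level, 3259 were lower and 3123 higher than mock, beside 14 and 3 of 31 members. PDK4 was the 1 member with a 2-fold difference from mock, beside 1.44% of all genes. The median difference over the 33 members was -0.08 log2 against NS siRNA and -0.10 against mock, beside -0.05 and -0.02 over all genes. Both comparisons use the same 3 Nrf2 siRNA arrays. Members called in the same direction against both controls numbered 9: SLC2A1, GPI, PFKP, ALDOA, TPI1, PGAM1 and PCK2 were lower, and SLC2A3 and PDK4 were higher. The background was 12.4% of all genes lower against both and 12.6% higher against both. In 11 members all 3 Nrf2 siRNA arrays lay below all 6 controls (17.0% of all genes) and in 2 members above them (14.9% of all genes).

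**Figure D1:**
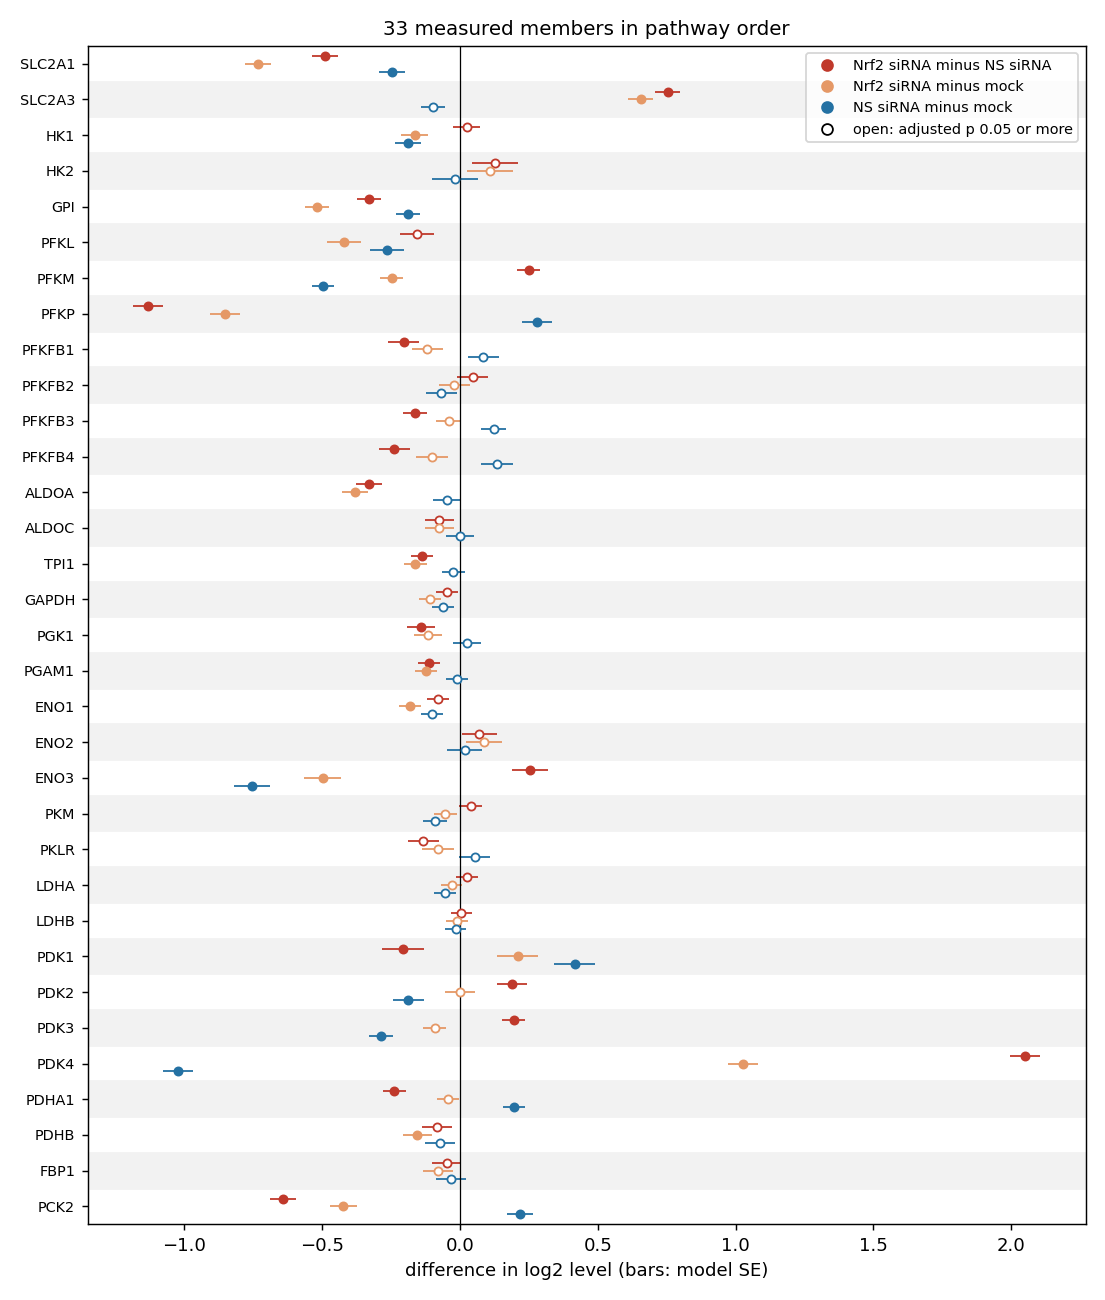
Difference in log2 level (horizontal axis, with the model's SE) for the 33 measured members, from glucose import at the top to PCK2 at the bottom, for Nrf2 siRNA minus NS siRNA, Nrf2 siRNA minus mock and NS siRNA minus mock. Filled symbols had an adjusted p below 0.05. PDK4 lies far to the right (2.05 and 1.03 for Nrf2 siRNA) and PFKP far to the left (-1.13 and -0.85), whereas PKM, LDHA and LDHB sit near 0 in every comparison.

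Glucose import came first in the path. SLC2A1 encodes GLUT1, the widespread basal glucose transporter. It stood at 9.56, 9.54 and 9.67 in Nrf2 siRNA, 10.06, 10.08 and 10.10 in NS siRNA, and 10.28, 10.35 and 10.34 in mock. The 3 groups did not overlap, and Nrf2 siRNA was the lowest. The fall was 1.40-fold against NS siRNA (-0.49 ± 0.05 SE, limma adjusted p = 2.20e-06) and 1.66-fold against mock (adjusted p = 1.17e-07), and NS siRNA was itself lower than mock by 0.25 (adjusted p = 0.00147). The other SLC2A1 probe set was dim (mean 7.32 over the 9 arrays) and differed by -0.05 against NS siRNA and -0.24 against mock (adjusted p = 0.657 and 0.0388 among probe sets).

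SLC2A3 encodes GLUT3, a transporter of high glucose affinity best known from neurons. It read 11.67, 11.59 and 11.59 in Nrf2 siRNA, 10.91, 10.82 and 10.86 in NS siRNA, and 10.96, 10.94 and 10.98 in mock. Every Nrf2 siRNA array was above every control array, while the controls lay close together. The rise was 1.69-fold against NS siRNA (0.75 ± 0.04 SE, adjusted p = 2.79e-08) and 1.58-fold against mock (adjusted p = 2.08e-07), with NS siRNA and mock apart by -0.10 (adjusted p = 0.124). The other SLC2A3 probe sets gave 0.86 and 0.85 against NS siRNA and 0.88 and 0.97 against mock. SLC2A14 is a near-identical copy of SLC2A3, so its transcripts could be read by these probe sets.

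Hexokinase phosphorylates glucose. HK1, the housekeeping form, averaged 11.69 in Nrf2 siRNA, 11.66 in NS siRNA and 11.85 in mock. It was lower than mock by 0.16 after Nrf2 siRNA (adjusted p = 0.0201) and by 0.19 after NS siRNA (adjusted p = 0.0101), and the 2 siRNA groups differed by 0.02 (adjusted p = 0.695). HK2, the form induced in many tumours, was dim, averaging 7.60 in Nrf2 siRNA, 7.47 in NS siRNA and 7.49 in mock, close to the array medians, and none of its comparisons passed.

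GPI converts glucose 6-phosphate to fructose 6-phosphate, at the point where the pentose phosphate pathway leaves. GPI stood at 13.38, 13.44 and 13.41 in Nrf2 siRNA, 13.71, 13.76 and 13.76 in NS siRNA, and 13.92, 13.98 and 13.89 in mock. The groups did not overlap and ran in the same order as for SLC2A1. GPI fell 1.26-fold against NS siRNA (adjusted p = 3.51e-05) and 1.43-fold against mock (adjusted p = 1.25e-06), and NS siRNA was below mock by 0.19 (adjusted p = 0.00494).

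Phosphofructokinase is built from platelet, liver and muscle subunits. PFKP, the platelet type, read 11.98, 12.15 and 12.05 in Nrf2 siRNA, 13.20, 13.21 and 13.16 in NS siRNA, and 12.85, 12.99 and 12.90 in mock. Every Nrf2 siRNA array was below every control array, and the controls did not overlap each other. PFKP fell 2.19-fold against NS siRNA (-1.13 ± 0.05 SE, adjusted p = 3.51e-09) and 1.81-fold against mock (adjusted p = 9.59e-08), while NS siRNA was above mock by 0.28 (adjusted p = 0.00146). The other PFKP probe set was dim, with a mean of 8.59, and differed by -0.18 against NS siRNA (adjusted p = 0.0374 among probe sets) and by -0.08 against mock (adjusted p = 0.378).

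Of the other phosphofructokinase genes, PFKL had the sign of PFKP against both controls and PFKM did not. PFKL, the liver type, read 9.23, 9.38 and 9.42 in Nrf2 siRNA, 9.54, 9.46 and 9.50 in NS siRNA, and 9.79, 9.85 and 9.66 in mock. It fell by 0.42 against mock (adjusted p = 0.000157) and differed by -0.16 from NS siRNA, just short of the threshold (adjusted p = 0.0528) and past it in 7 of 19 alternative settings. Every PFKL array of Nrf2 siRNA was below every control array. PFKM, the muscle type, averaged 11.26 ± 0.03 in Nrf2 siRNA, 11.01 ± 0.01 in NS siRNA and 11.51 ± 0.02 in mock (SD, n = 3 each). Nrf2 siRNA lay between the controls: PFKM was higher than NS siRNA by 0.25 (adjusted p = 0.000234) and lower than mock by 0.25 (adjusted p = 0.000412), and the controls themselves differed by -0.50 (adjusted p = 1.49e-06).

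**Figure D2:**
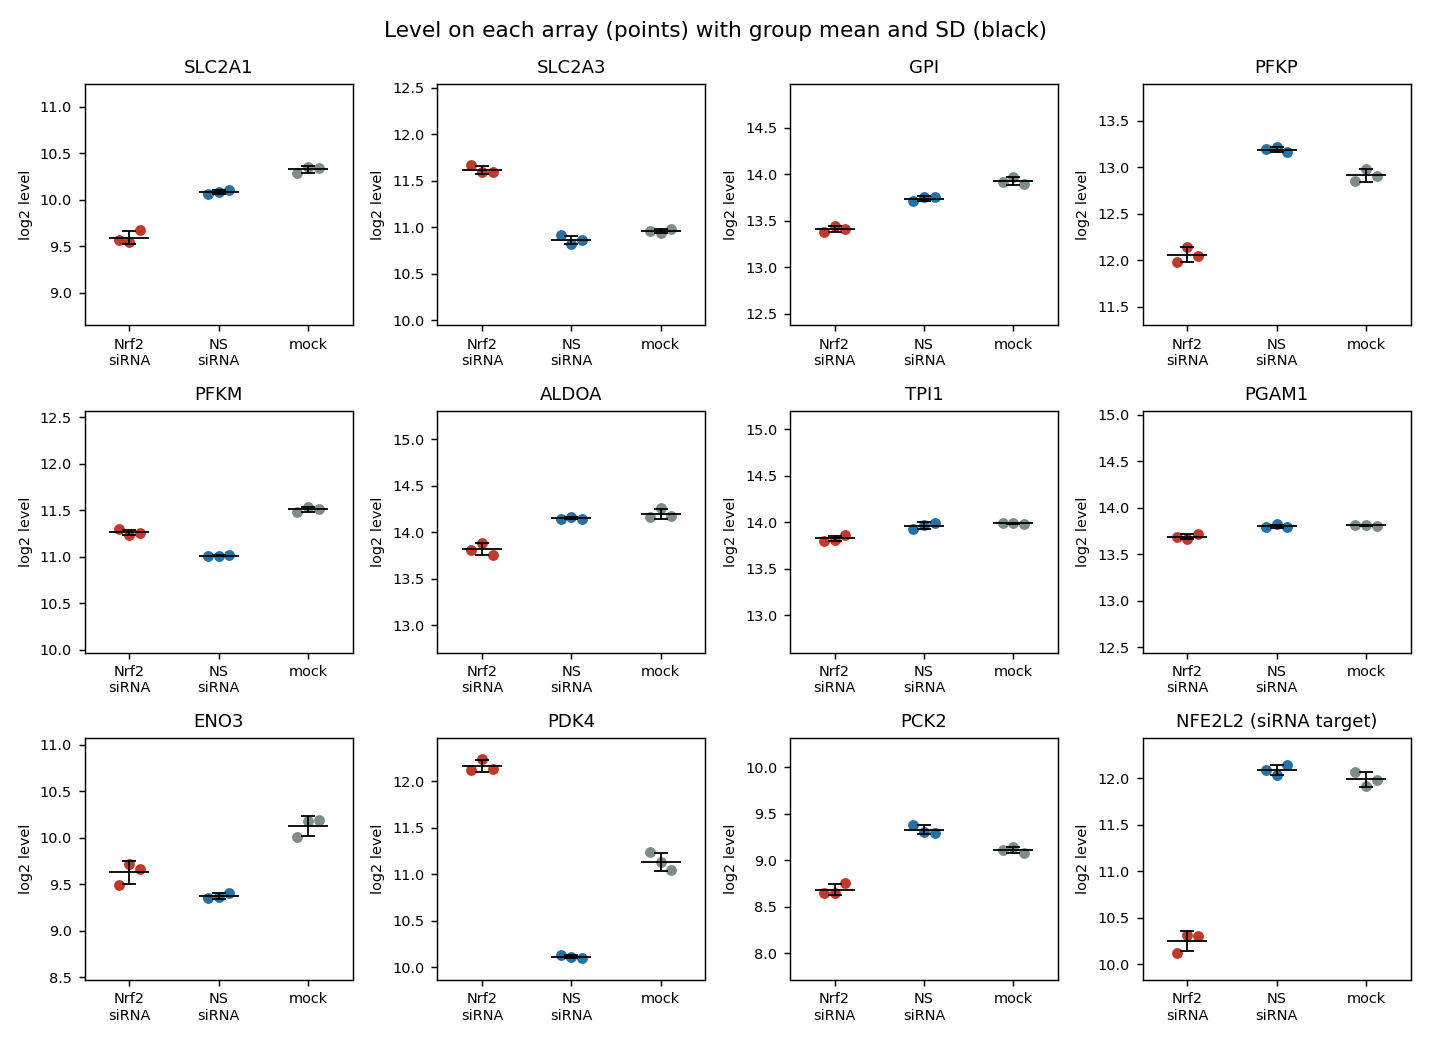
Log2 level on each array (points) with the mean and SD of each group (black) for 11 members and for NFE2L2, with Nrf2 siRNA on the left of each panel; every panel spans the same range of log2 units around its own values. PFKP and NFE2L2 are low in all 3 Nrf2 siRNA arrays, SLC2A3 and PDK4 are high in them, and for PFKM and ENO3 the Nrf2 siRNA arrays fall between NS siRNA and mock.

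The PFKFB genes encode enzymes that make or remove fructose 2,6-bisphosphate, the activator of phosphofructokinase. PFKFB3, the form with the strongest kinase activity, averaged 12.43 in Nrf2 siRNA, 12.60 in NS siRNA and 12.47 in mock. PFKFB1, PFKFB3 and PFKFB4 were lower than NS siRNA by 0.20, 0.16 and 0.24 (adjusted p = 0.00931, 0.00934 and 0.00450). None of the 3 passed against mock, where they differed by -0.12, -0.04 and -0.10. The PFKFB1 call was lost when its probe sets were averaged (-0.08, adjusted p = 0.141). PFKFB2 did not pass in any comparison on its brightest probe set, but a dimmer one, at a mean of 7.24, differed by -0.58 against NS siRNA (adjusted p = 3.62e-05 among probe sets) and by -0.07 against mock (adjusted p = 0.587).

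Aldolase cleaves fructose 1,6-bisphosphate. ALDOA, the main form outside liver and brain, stood at 13.82, 13.89 and 13.76 in Nrf2 siRNA, 14.14, 14.16 and 14.15 in NS siRNA, and 14.16, 14.26 and 14.18 in mock. Nrf2 siRNA was below both controls, whose arrays lay next to each other. The fall was 1.26-fold against NS siRNA (adjusted p = 7.71e-05) and 0.38 log2 against mock (adjusted p = 4.36e-05), and a dimmer probe set, at a mean of 11.14, gave -0.63 and -0.64. ALDOC, the brain form, did not pass in any comparison.

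Changes were small further down the path. TPI1, which interconverts the products of aldolase, read 13.80, 13.81 and 13.86 in Nrf2 siRNA, 13.92, 13.97 and 13.99 in NS siRNA, and 13.99, 13.99 and 13.98 in mock. It was lower by 0.14 against NS siRNA (adjusted p = 0.0161) and by 0.16 against mock (adjusted p = 0.00905), and the first call was lost with equal array medians (adjusted p = 0.0512) and without NS siRNA replicate 3 (adjusted p = 0.0577). PGAM1, a phosphoglycerate mutase, read 13.68, 13.66 and 13.72 in Nrf2 siRNA, 13.79, 13.82 and 13.79 in NS siRNA, and 13.81, 13.81 and 13.80 in mock. It was lower by 0.11 and 0.12 (adjusted p = 0.0347 and 0.0310), and these calls were lost in 9 and 8 of 19 alternative settings. PGK1, which makes ATP, was lower than NS siRNA by 0.14 (adjusted p = 0.0403), a call lost in 12 of 19 settings. It did not pass against mock (adjusted p = 0.112). A dimmer PGK1 probe set, at a mean of 12.45, differed by -0.23 against NS siRNA and -0.14 against mock (adjusted p = 0.00297 and 0.0624 among probe sets). Another, at a mean of 12.03, differed by -0.02 and -0.26 (adjusted p = 0.773 and 0.000722). The remaining dimmer PGK1 probe sets did not pass against either control.

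Several genes at the end of the path showed no called difference. On the brightest probe set of each, GAPDH, PKM, LDHA and LDHB did not pass in any comparison. PKM makes pyruvate, and LDHA and LDHB interconvert pyruvate and lactate. LDHA averaged 14.42 in Nrf2 siRNA, 14.39 in NS siRNA and 14.45 in mock, and PKM averaged 14.32, 14.28 and 14.37 in the same groups. The difference from NS siRNA was 0.02 ± 0.04 (SE) for LDHA and 0.04 ± 0.04 for PKM. With ALDOA and ENO1 these were the 6 members with a mean above 14, brighter than 99.6% or more of all probe sets, where an array scale can compress differences; whether it did was not tested. LDHB was listed at the same value on all 3 Nrf2 siRNA arrays.

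GAPDH, often used as a loading control, read 14.88, 14.86 and 14.84 in Nrf2 siRNA, 14.91, 14.90 and 14.91 in NS siRNA, and 14.96, 14.97 and 14.98 in mock. Every Nrf2 siRNA array was below every control, but the differences of -0.05 against NS siRNA and -0.11 against mock did not pass (adjusted p = 0.350 and 0.0506). They passed in 2 and 6 of 19 alternative settings. Many bright glycolytic genes have processed pseudogenes, and their probe sets may read related transcripts.

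The enolases make phosphoenolpyruvate. ENO1, the ubiquitous form, was lower than mock by 0.18 (adjusted p = 0.00336) and differed from NS siRNA by -0.08 (adjusted p = 0.116). Another bright ENO1 probe set, at a mean of 14.01, was lower by 0.15 against NS siRNA and by 0.29 against mock (adjusted p = 0.0131 and 0.000272 among probe sets). Its dimmer probe sets, at means of 10.57 and 8.17, did not pass against either control. ENO3, the muscle form, stood at 9.49, 9.72 and 9.67 in Nrf2 siRNA, 9.35, 9.36 and 9.41 in NS siRNA, and 10.01, 10.17 and 10.19 in mock. As for PFKM, Nrf2 siRNA lay between the controls: ENO3 was higher than NS siRNA by 0.26 (adjusted p = 0.00646) and lower than mock by 0.50 (adjusted p = 7.03e-05), and NS siRNA was below mock by 0.75 (adjusted p = 2.57e-06). The other ENO3 probe set, at a mean of 5.85, gave -0.0015 against NS siRNA. ENO2 and PKLR, the neuronal enolase and the liver and red cell pyruvate kinase, did not pass in any comparison.

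Promoters of 4 members are given as the 250 bases before the RefSeq gene start (GRCh38.p14), to set genes that moved most beside a steady one and the 1 phosphofructokinase gene with an antioxidant response element core. Capitals mark that core (TGACNNNGC or GCNNNGTCA on either strand), where NRF2 binds with a small MAF protein, and the hypoxia response element core (ACGTG or GCGTG, and CACGT or CACGC for the other strand).
PFKP (chr10:3067720-3067969, plus strand): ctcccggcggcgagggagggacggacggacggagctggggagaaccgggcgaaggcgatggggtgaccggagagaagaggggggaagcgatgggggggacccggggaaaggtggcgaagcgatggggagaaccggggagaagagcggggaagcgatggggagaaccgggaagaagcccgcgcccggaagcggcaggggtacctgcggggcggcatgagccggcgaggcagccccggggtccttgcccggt
PDK4 (chr7:95596517-95596766, minus strand): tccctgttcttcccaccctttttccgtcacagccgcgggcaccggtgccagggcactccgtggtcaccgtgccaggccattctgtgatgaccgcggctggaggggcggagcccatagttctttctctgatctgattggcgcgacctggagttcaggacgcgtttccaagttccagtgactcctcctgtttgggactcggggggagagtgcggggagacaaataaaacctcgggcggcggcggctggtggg
PFKL (chr21:44299803-44300052, plus strand): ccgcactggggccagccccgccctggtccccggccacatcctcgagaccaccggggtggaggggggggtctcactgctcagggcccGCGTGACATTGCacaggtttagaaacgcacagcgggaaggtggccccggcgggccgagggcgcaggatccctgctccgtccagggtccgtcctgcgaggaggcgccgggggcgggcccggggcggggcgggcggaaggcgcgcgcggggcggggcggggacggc
LDHA (chr11:18394313-18394562, plus strand): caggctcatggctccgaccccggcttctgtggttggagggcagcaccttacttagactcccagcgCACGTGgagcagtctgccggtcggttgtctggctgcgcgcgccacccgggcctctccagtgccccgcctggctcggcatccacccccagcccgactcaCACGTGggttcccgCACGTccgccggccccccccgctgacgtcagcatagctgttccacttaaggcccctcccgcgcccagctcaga

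The PFKP and PDK4 windows held neither core, which says only that these letters are not in these 250 bases. The PFKL window held 1 antioxidant response element core, starting 161 bases before the gene start and overlapping a hypoxia core that starts at 164. The LDHA window held 5 hypoxia core matches, of which 4 pair up in 2 palindromes, CACGTG, also known as the E box. Of 31 measured members with a promoter in the table, 4 held an antioxidant core (GAPDH, PKM, ALDOC and PFKL; 12.9%, beside 10.9% of 35116 promoters) and 18 a hypoxia core (58.1%, beside 43.2%). SLC2A3 and PFKFB2 had no entry. A match is a description and not a site of binding.

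The pyruvate dehydrogenase kinases, which switch the complex off by phosphorylation, held the largest difference among the members. PDK4, induced by fasting and fatty acids in muscle, stood at 12.12, 12.23 and 12.13 in Nrf2 siRNA, 10.13, 10.11 and 10.10 in NS siRNA, and 11.24, 11.13 and 11.04 in mock. The 3 groups were well apart, with mock in the middle. PDK4 rose 4.14-fold against NS siRNA (2.05 ± 0.05 SE, adjusted p = 3.12e-11) and 2.04-fold against mock (adjusted p = 2.15e-08). NS siRNA alone was 2.03-fold below mock (adjusted p = 3.28e-08), so the size of the rise depends on the control. All 3 PDK4 probe sets rose in both comparisons, with the 2 dimmer ones at 1.23 and 2.21 against NS siRNA and 0.41 and 1.04 against mock.

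The other kinases moved little and depended on the control. PDK1, a hypoxia-induced form, averaged 8.25 in Nrf2 siRNA, 8.45 in NS siRNA and 8.04 in mock. It was lower than NS siRNA by 0.21 (adjusted p = 0.0388) and higher than mock by 0.21 (adjusted p = 0.0494), calls lost in 8 and 12 of 19 settings. PDK2 and PDK3 were higher than NS siRNA by 0.19 each (adjusted p = 0.0132 and 0.00201) and differed from mock by 0.00 and -0.09, which did not pass. For PDK3 3 of 5 probe sets had the sign given against NS siRNA, and a dim one, at a mean of 6.98, was lower by 0.38 (adjusted p = 0.000875 among probe sets). The PDK3 call was lost when probe sets were averaged.

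With PFKM and ENO3, PDK1 made 3 members called in opposite directions against the 2 controls, 9.09% of the members beside 1.77% of all genes. By that choice, in all 3 the mean of Nrf2 siRNA lies between the means of the controls. In the comparison of NS siRNA with mock, 13 members passed (39.4%, beside 30.8% of all genes), 9 lower and 4 higher, beside 15.2% and 15.6% of all genes. PDK4 was the 1 member with a 2-fold difference between NS siRNA and mock, beside 0.895% of all genes. Against the mean of both controls, 16 members differed after Nrf2 siRNA (43.4% of all genes), 14 lower (23.0% of all genes) and 2 higher (20.4%), with PDK4 the 1 at 2-fold or more (1.66%).

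PDHA1 and PDHB encode the subunits of the first enzyme of the pyruvate dehydrogenase complex. PDHA1 averaged 12.18 ± 0.01 in Nrf2 siRNA, 12.42 ± 0.02 in NS siRNA and 12.22 ± 0.03 in mock (SD, n = 3 each). It was lower than NS siRNA by 0.24 (adjusted p = 0.000304) and differed from mock by -0.04 (adjusted p = 0.478), and 1 of its 3 probe sets, at a mean of 10.15, went the other way, at 0.29 against NS siRNA. PDHB was lower than mock by 0.15 (adjusted p = 0.0433), a call lost in 11 of 19 settings, and did not pass against NS siRNA (-0.08, adjusted p = 0.228). Its dimmer probe set, at a mean of 10.50, was lower by 0.35 against NS siRNA and by 0.26 against mock (adjusted p = 0.000222 and 0.00356 among probe sets).

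The rest of the complex and its supply came from a wider list of 11 genes, 9 of them measured. Against NS siRNA 4 rose and 3 fell, and against mock 2 rose and 3 fell, beside 21.0% higher and 26.6% lower, and 16.4% and 16.7%, of all genes. The list medians were 0.04 and -0.03, beside -0.05 and -0.02 over all genes. DLAT, the acetyltransferase core, read 10.07, 10.17 and 10.19 in Nrf2 siRNA, 11.03, 10.98 and 10.94 in NS siRNA, and 10.69, 10.64 and 10.63 in mock. DLAT fell 1.79-fold against NS siRNA (adjusted p = 1.74e-08) and 1.42-fold against mock (adjusted p = 3.49e-06), and PDHX, which anchors the third enzyme, fell by 0.52 and 0.13 (adjusted p = 1.62e-06 and 0.0494).

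PDP1, the phosphatase that reverses the action of the kinases, moved the same way as PDK4. PDP1 read 9.88, 10.02 and 9.79 in Nrf2 siRNA, 9.27, 9.23 and 9.10 in NS siRNA, and 8.91, 9.06 and 9.03 in mock, and rose by 0.70 and 0.90 (adjusted p = 2.21e-06 and 4.68e-07). MPC2, a subunit of the mitochondrial pyruvate carrier, rose by 0.49 against NS siRNA and 0.32 against mock (adjusted p = 1.89e-06 and 0.000149). Its partner MPC1 rose by 0.80 against NS siRNA (adjusted p = 1.16e-08) and differed from mock by 0.08 (adjusted p = 0.183). PC, which carboxylates pyruvate to oxaloacetate, was higher than NS siRNA by 0.24 and lower than mock by 0.45 (adjusted p = 0.00251 and 2.99e-05).

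**Figure D3:**
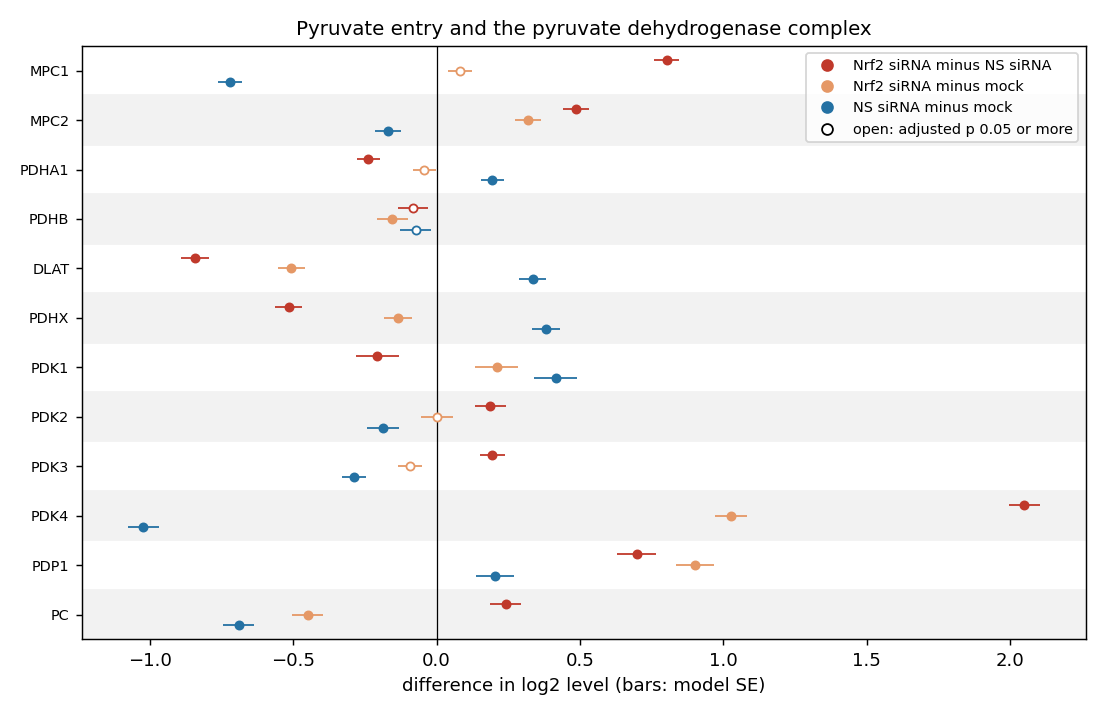
Difference in log2 level (horizontal axis, with the model's SE) for the pyruvate carrier, the subunits of pyruvate dehydrogenase, its kinases and phosphatase, and pyruvate carboxylase, drawn as Nrf2 siRNA minus NS siRNA, Nrf2 siRNA minus mock and NS siRNA minus mock. DLAT lies to the left for Nrf2 siRNA (-0.84 and -0.51) and PDK4 and PDP1 lie to the right, whereas MPC1 moves away from 0 only where NS siRNA is compared.

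The gluconeogenic members ended the list. PCK2, the mitochondrial enzyme that makes phosphoenolpyruvate from oxaloacetate, stood at 8.65, 8.64 and 8.76 in Nrf2 siRNA, 9.38, 9.30 and 9.29 in NS siRNA, and 9.10, 9.14 and 9.07 in mock. Nrf2 siRNA was below both controls, and NS siRNA was above mock by 0.22 (adjusted p = 0.00377). PCK2 fell 1.56-fold against NS siRNA (-0.64 ± 0.05 SE, adjusted p = 2.34e-07) and 1.34-fold against mock (adjusted p = 1.93e-05). FBP1, which reverses the phosphofructokinase step in liver and kidney, was below the array medians at 7.11 in Nrf2 siRNA, 7.15 in NS siRNA and 7.19 in mock, and did not pass.

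Probe sets could be compared for 23 of the 33 members. For SLC2A1, SLC2A3, PFKL, PFKP, PFKFB4, ALDOA, TPI1, GAPDH, PGK1, ENO1, PDK2, PDK4 and PDHB all of them had the same sign in both Nrf2 siRNA comparisons. HK2, PFKFB1, PFKFB2, ENO3, PKM, PKLR, LDHB, PDK1, PDK3 and PDHA1 had probe sets of both signs in at least 1 of the comparisons.

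**Figure D4:**
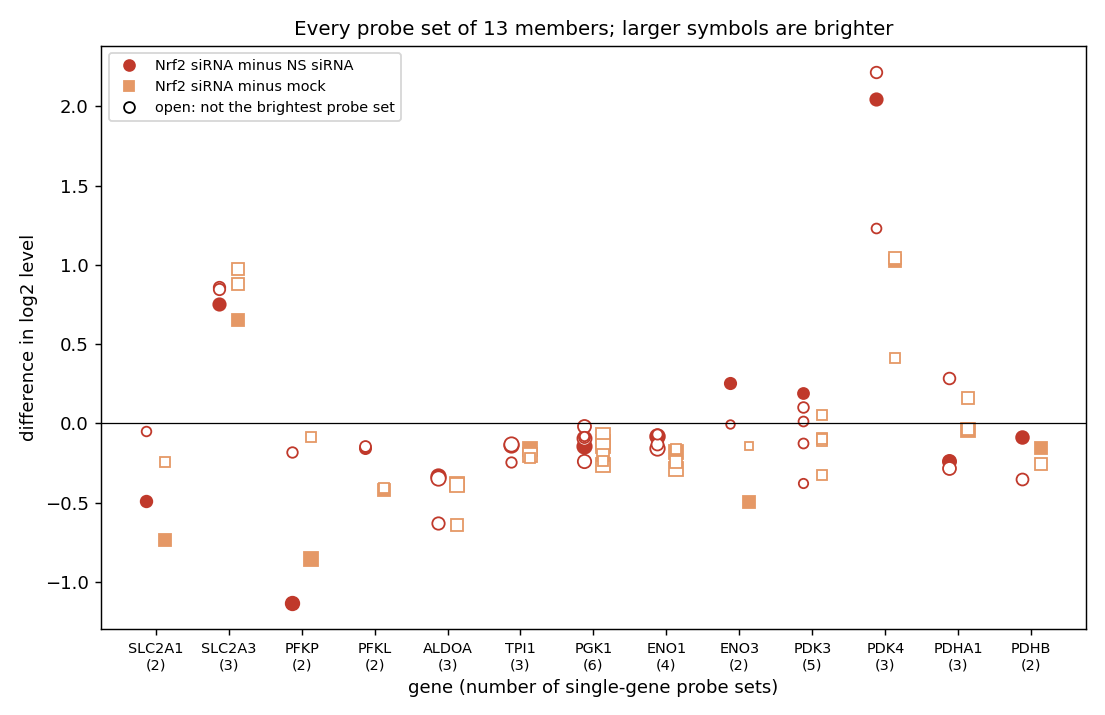
Difference in log2 level (vertical axis) for every single-gene probe set of 13 members, as Nrf2 siRNA minus NS siRNA (circles) and minus mock (squares); filled symbols are the brightest probe set and larger symbols are brighter. All probe sets of SLC2A3 and PDK4 lie above 0 and all of PFKP and ALDOA below it, but the dim PFKP and SLC2A1 probe sets lie nearer to 0 than the bright ones.

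Other genes of glucose transport and glycolysis were counted from a list of 23, 21 of them measured. Against NS siRNA 2 were higher and 8 lower, and against mock 3 were higher and 3 lower. That is 9.52% higher and 38.1% lower than NS siRNA, beside 21.0% and 26.6% of all genes, and 14.3% each way against mock, near the 16.4% and 16.7% of all genes. HKDC1, a hexokinase-like enzyme, read 8.53, 8.75 and 8.63 in Nrf2 siRNA, 10.78, 10.74 and 10.64 in NS siRNA, and 9.41, 9.59 and 9.37 in mock. It fell 4.24-fold against NS siRNA (adjusted p = 1.83e-10) and 1.77-fold against mock (adjusted p = 1.44e-06), with NS siRNA 2.40-fold above mock (adjusted p = 4.57e-08), so here too the controls were apart. PGP, which clears side products of glycolysis, fell by 0.37 and 0.34 (adjusted p = 5.18e-05 and 0.000183). The transporter SLC2A6 rose by 0.45 and 0.30 (adjusted p = 1.00e-04 and 0.00353), and TIGAR, which lowers fructose 2,6-bisphosphate, was lower than NS siRNA by 0.34 and differed from mock by 0.06 (adjusted p = 3.95e-05 and 0.390).

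Of 16 measured genes of gluconeogenesis and glycogen, 4 rose and 6 fell against NS siRNA, and 2 rose and 4 fell against mock. The shares that rose, 25.0% and 12.5%, were near those of all genes (21.0% and 16.4%), and the shares that fell were 37.5% and 25.0%, beside 26.6% and 16.7%. G6PC3, the ubiquitous glucose 6-phosphatase, fell by 0.52 and 0.59 (adjusted p = 1.00e-06 and 6.54e-07). PPP1R3C, which targets a phosphatase to glycogen, rose by 1.11 and 0.39 (adjusted p = 4.52e-08 and 0.000709), and the glycogen phosphorylase PYGL fell by 0.43 and 0.36 (adjusted p = 4.11e-05 and 0.000338).

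Of 6 genes tied to lactate and monocarboxylate transport, 2 rose and 1 fell against NS siRNA (47.6% of all genes passed there), and 0 passed against mock in limma, also at an unadjusted p below 0.05 (33.0% of all genes passed there after adjustment). BSG and EMB, chaperones of the lactate exporters, were higher than NS siRNA by 0.44 and 0.53 (adjusted p = 8.11e-05 and 1.38e-06) and differed from mock by 0.03 and 0.06.

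The NADH shuttles, which carry cytosolic NADH electrons into mitochondria, had 6 of 10 genes lower and 1 higher than NS siRNA, beside 26.6% and 21.0% of all genes. Against mock 5 were lower and 0 higher in limma (6 and 0 at an unadjusted p below 0.05), beside 16.7% and 16.4% of all genes. The list medians were -0.21 and -0.15, beside -0.05 and -0.02 over all genes. SLC25A12, a mitochondrial aspartate-glutamate carrier, was the 1 that rose against NS siRNA, by 0.43 (adjusted p = 1.57e-05), and differed from mock by -0.04 (adjusted p = 0.655). GPD2, the mitochondrial glycerol phosphate dehydrogenase, fell by 0.57 and 0.63 (adjusted p = 1.50e-06 and 1.29e-06), and MDH2, GOT1 and SLC25A11 of the malate-aspartate shuttle fell by 0.30, 0.30 and 0.29 against NS siRNA and by 0.33, 0.25 and 0.51 against mock.

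Regulators of these genes were counted too. Of 16 measured, 3 were higher and 4 lower than NS siRNA, and 1 higher and 4 lower than mock. Against NS siRNA these shares, 18.8% and 25.0%, were near the 21.0% and 26.6% of all genes. Against mock they were 6.25% and 25.0%, beside 16.4% and 16.7%. MYC, a transcription factor known to drive glycolytic genes, read 11.76, 11.73 and 11.68 in Nrf2 siRNA, 12.57, 12.60 and 12.63 in NS siRNA, and 12.39, 12.39 and 12.39 in mock, a fall of 0.88 and 0.67 (adjusted p = 4.16e-09 and 1.06e-07). EGLN1, a prolyl hydroxylase that marks the hypoxia factor for destruction, was the regulator higher than both controls, by 0.81 against NS siRNA and 0.22 against mock (adjusted p = 1.14e-08 and 0.00172). HIF1A, the hypoxia factor subunit, was higher than NS siRNA by 0.39 (adjusted p = 6.42e-06) and differed from mock by -0.11 (adjusted p = 0.0647). Of 13 measured hypoxia response genes outside glycolysis, 5 rose and 6 fell against NS siRNA, and 0 rose and 6 fell against mock in limma (0 and 8 at an unadjusted p below 0.05), beside 21.0% and 26.6%, and 16.4% and 16.7%, of all genes. ANGPTL4, an inhibitor of lipoprotein lipase, fell against both controls, by 0.92 and 0.96 (adjusted p = 5.05e-07 and 6.60e-07). Others depended on the control: ADM, the adrenomedullin gene, fell by 1.04 against NS siRNA and differed from mock by 0.01 (adjusted p = 2.11e-09 and 0.907). DDIT4, an inhibitor of mTORC1 signalling, rose by 0.52 against NS siRNA and differed from mock by -0.13 (adjusted p = 9.54e-07 and 0.0512). CA12, a carbonic anhydrase, was higher than NS siRNA by 0.33 and lower than mock by 0.52 (adjusted p = 0.00260 and 0.000123).

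The pentose phosphate and NADPH enzymes, which share glucose 6-phosphate with glycolysis, had 6 of 8 genes lower and 1 higher than NS siRNA, and 5 lower and 2 higher than mock, beside 26.6% and 21.0%, and 16.7% and 16.4%, of all genes. PGLS was higher than both controls and RPIA was lower than NS siRNA but higher than mock; these 2 were named after their values were seen. TALDO1 fell by 1.43 and 1.32, ME1 by 1.59 and 1.75, TKT by 0.69 and 0.91 and PGD by 0.74 and 0.87.

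Epithelial markers did not move as 1 group. Of the 8, 2 were higher and 2 lower than NS siRNA, beside 21.0% and 26.6% of all genes. Against mock 3 were higher and 1 lower, beside 16.4% and 16.7%. KRT8 was higher than mock by 0.21 (limma adjusted p = 0.00220) and SFTPC lower than NS siRNA by 0.16 (adjusted p = 0.0232), each without passing against the other control. KRT18, SFTPB and NKX2-1 did not pass against either control. EPCAM and CDH1, which encode adhesion molecules, were each higher by 0.48 against NS siRNA (adjusted p = 6.18e-05 and 0.000106) and by 1.20 and 0.94 against mock (adjusted p = 3.43e-08 and 5.34e-07), while the keratin KRT7 was lower by 0.17 and 0.21 (adjusted p = 0.0219 and 0.0106). Markers of other cell types were checked too. Over the 7 fibroblast markers the mean log2 level was 8.70 to 8.80 in Nrf2 siRNA, 7.87 to 7.91 in NS siRNA and 8.12 to 8.27 in mock. Against NS siRNA 4 of the 7 were higher, beside 21.0% of all genes. These were the matrix genes LUM, COL3A1 and COL1A1, by 3.01, 1.73 and 1.12, and the surface marker THY1, by 0.34. Against mock 3 of the 7 were higher, LUM, COL3A1 and THY1 by 2.31, 0.99 and 0.22, beside 16.4% of all genes. COL1A1 differed from mock by 0.18 (adjusted p = 0.176), with NS siRNA below mock by 0.94. DCN, COL1A2 and PDGFRA did not pass against either control. The 5 leukocyte markers averaged 7.58 to 7.66 in Nrf2 siRNA, 7.42 to 7.50 in NS siRNA and 7.36 to 7.44 in mock, and the 5 endothelial ones 7.28 to 7.45, 7.37 to 7.44 and 7.31 to 7.40 in the same groups. Among leukocyte markers CD14 was higher, by 0.96 against NS siRNA and 0.99 against mock, while PTPRC, at 7.26 in Nrf2 siRNA, 7.26 in NS siRNA and 7.13 in mock, did not pass. Among endothelial markers CDH5 was higher, by 0.19 against NS siRNA and 0.23 against mock. The part of these in the results was not tested. In cultured cells measured in bulk, fewer cells expressing a gene and less RNA per cell cannot be told apart.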

How the data were processed

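Biotin-labelled RNA was read on Affymetrix arrays of 54675 probe sets. The deposited values are log2 levels that the authors made with RMA, which normalizes between arrays, per the submitters' processing notes; no version is named there. Values ran from 3.60 to 15.06. No detection calls or scan dates were used, so dim genes have no background test and batches were not examined.

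Of the probe sets, 62 were controls and stayed out, 41091 carried 1 gene, 1801 several and 11721 none. Of those with 1 gene, 41037 were matched by Entrez identifier to RefSeq (GRCh38.p14), from which their symbols were taken. A linear model over all 9 arrays (lmFit and eBayes of limma 3.58.1, run in R 4.3.3, 6 residual and 6.12 prior degrees of freedom) gave two-sided tests adjusted over 19775 genes at 0.05; single probe sets were adjusted over 41091. SDs are between the 3 arrays of a group and SEs come from the model. The procedure was tested on simulated data with 200 of 19775 genes changed. There 100% of changes of 1 log2, 93.8% of 0.5 and 57.5% of 0.25 were recovered, with 7 calls among unchanged genes. In the data 47.6% of all genes were called against NS siRNA, so recovery may differ from the simulated one. Plots were made in matplotlib 3.10.9 (Python 3.11.15).

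The members and lists were chosen with earlier results of these data known. Array values are printed for PFKP, SLC2A3, members called in 1 direction against each control, and members called at 0.5 or more; of every other list, genes were taken from the 4 with the smallest p against each control, without naming all of them. PFKM, PFKL, GAPDH and others are described for their roles, PFKL and GAPDH with array values. NQO1, GCLC, GCLM, TXNRD1, SRXN1 and HMOX1 were a check of the knockdown, and all 6 fell against NS siRNA and against mock. Alternatives covered scaling, a filter on low values, the choice of probe set, the variance model, a fit of the compared groups only, a replicate block, omission of single arrays and a threshold of 0.01.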

Additional observations from a re-analysis of the deposited data

Results flagged for a closer look

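Probe sets that carry SLC2A3 together with its near-identical copy SLC2A14 were outside the main measurement, and both were above all 6 controls after Nrf2 siRNA. The brighter one read 11.42, 11.39 and 11.44 in Nrf2 siRNA, 10.66, 10.72 and 10.68 in NS siRNA, and 10.77, 10.82 and 10.76 in mock, a difference of 0.68 log2 from the mean of both controls. The dimmer one read 10.77, 10.77 and 10.84 in Nrf2 siRNA, 9.94, 9.95 and 9.88 in NS siRNA, and 9.87, 9.83 and 9.84 in mock, a difference of 0.91. Both differences were measured on shared sequence and had no test of their own. Groups of 3 were not searched for single outlying arrays, but the fits were repeated with each array left out in turn.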

How the results depend on the processing

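For the 10 members that the naming rule selects, 603 recomputed differences over 30 member and comparison pairs gave 575 on the same side of the threshold, 27 that lost a call and 1 of the other sign, the second ENO3 probe set (-0.0015 against NS siRNA); apart from second probe sets, the lost calls belonged to TPI1, PGAM1 and ENO3. A threshold of 0.01 moved 3 counts by over 1.5 times: 9 members, beside 14, were lower than the mean of both controls, 3509 genes, beside 5266, were lower than NS siRNA after Nrf2 siRNA, and 1932, beside 3083, were higher in NS siRNA than in mock. In the other settings the counts of genes and members in each direction stayed within 1.5 times. The member median moved by more than its spread between arrays (SD 0.0103) in these settings: against NS siRNA it was -0.0579 with equal array medians, -0.0985 with quantile normalization and -0.113 with the most variable probe set; against mock -0.0800 with probe sets averaged per gene and -0.119 with the most variable; for NS siRNA against mock -0.0730 with equal medians, -0.0109 with averaging and 0.0004 with the most variable, so its sign is not settled; against the mean of both controls -0.0917 with equal medians, -0.0813 with averaging and -0.1185 with the most variable, beside -0.102. Leaving out 1 array gave medians of -0.0877 to -0.0733 against NS siRNA, -0.117 to -0.0842 against mock, -0.0574 to -0.0436 for NS siRNA against mock and -0.109 to -0.0851 against both controls. The cause was not tested.

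Groups share replicate numbers, and 5 of 9 same-numbered pairs of arrays had deviations correlated above 0.1 (r = -0.208 to 0.231). Among pairs with different numbers it was 4 of 18 (r = -0.342 to 0.200), which does not settle whether arrays are paired. The numbers were not taken as pairs because no label says that a number marks a shared culture, day or batch. With the number as a replicate block, 6 members were higher and 13 lower against NS siRNA, and 3 and 12 against mock, with PDHB the lost call. Signal over background is unknown here, and whether HK2, FBP1 and dim second probe sets understate changes was not tested. Dimmer second probe sets gave smaller differences for PFKP and SLC2A1 and larger ones for ALDOA and SLC2A3.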

Other observations

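The array's control probe sets for GAPDH, which stayed out of the tests, gave 3 further readings of that gene along its transcript. The 3′ one averaged 14.70 in Nrf2 siRNA, 14.75 in NS siRNA and 14.83 in mock, the middle one 14.78, 14.85 and 14.92, and the 5′ one 14.68, 14.73 and 14.81. On all 3 the Nrf2 siRNA arrays lay below all 6 controls and the NS siRNA arrays below all mock arrays.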
